A study of Homo sapiens with 32 samples.

Results

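The mitochondrial tricarboxylic acid (TCA) cycle was examined through 9 nuclear genes: PDHA1 and PDHB, which encode the catalytic subunits of pyruvate dehydrogenase, and CS, IDH3A, OGDH, SUCLG1, SUCLA2, FH and MDH2, which encode cycle enzymes or their subunits. They were taken by name from 10625 genes with a decay rate in both cell lines, after RefSeq transcript identifiers had been matched to current symbols, and all 9 were found, with 12 of the 12966 transcripts. MDA-MB-231, an established human triple-negative breast cancer line, was compared with MDA-LM2, a derivative selected in mice for metastasis to the lung. Cells of both lines were kept in DMEM-based medium with serum, glutamine and sodium pyruvate, were fed 4-thiouridine (4sU) for 2 h so that newly made RNA carried the label, and were then moved to fresh medium with excess uridine. The labelled RNA of 32 libraries was sequenced 0, 2, 4 and 7 h later, 4 libraries for each line at each time.

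The deposited tables give no level per library. They hold 1 decay rate for each transcript in each of 4 replicate series of each line, a series being the 4 time points together. A higher rate means a faster loss of labelled RNA, and a rate below 0 means that the estimated abundance rose during the chase. The log base of the rates is not stated in the labels or headers, and they are therefore left in the deposited unit, with no half-life derived. Whether the series are separate cultures is also not stated, and MDA-LM2 is a selected derivative of a single parental line, so a p-value measures only the spread between these series. Read depth is unknown.

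The pyruvate dehydrogenase complex turns pyruvate into acetyl-CoA inside mitochondria, and the cycle oxidises that acetyl group to CO2 while passing electrons to the respiratory chain. All of these enzymes are encoded in the nucleus, so the stability of their mRNAs is one of the steps that set how much enzyme is made. Cycle intermediates also leave mitochondria as precursors of lipids, amino acids and nucleotides, and inherited loss of FH, fumarate hydratase, predisposes to kidney and smooth muscle tumours through the build-up of fumarate.

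The mean rate was lower in MDA-LM2 than in MDA-MB-231 for 8 of the 9 genes, the exception being MDH2. Across all genes 67.1% had a lower mean in MDA-LM2. FH alone passed the test between the lines, at a Benjamini-Hochberg adjusted p of 0.0398 over all genes in limma, a fit per gene that borrows information on the spread from all other genes. That is 1 of 9 called slower, beside 6.76% of all genes called slower, and 0 of 9 called faster, beside 1.98% of all genes. With a correlation between series estimated over all genes, FH was not called (limma adjusted p = 0.160), which left 0 of 9, beside 3.19% of all genes called slower. In PDHB, CS, SUCLA2 and FH all 4 MDA-LM2 rates lay below all 4 MDA-MB-231 rates, which was so for 17.7% of all genes. The median difference over the 9 genes, MDA-LM2 minus MDA-MB-231, was -0.0598, and over all genes -0.0542. Among genes with all 8 rates within 1 of 0 it was -0.0549 for the 8 of the 9 in that range and -0.0173 for the 7092 such genes. With each series centred on its median over all genes, the median over the 9 was -0.0346. Centring changes the difference of every gene by the same amount, so the median over all genes moved towards 0 equally.

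The series of a line were not independent of each other. Their titles carry a pair of numbers, and the sources do not say what the second number means. Across the genes with all 8 rates within 1 of 0, the MDA-MB-231 series sharing a second number (replicates 1 and 3, or 2 and 4) correlated at a Spearman rho of 0.788 and 0.642, and the others at 0.307 to 0.429. In MDA-LM2 the values were 0.916 and 0.887 against 0.767 to 0.783. The correlated fit gave limma a common correlation between such series. The tables also differ in spread: 3.03% to 4.89% of genes had a rate beyond 1 either side of 0 in an MDA-LM2 series, and 16.8% to 18.8% in an MDA-MB-231 series. Of 8 marker genes of MDA-MB-231 cells all 8 were listed in both tables, and of 14 markers of other cells 4 were (CD68, LYZ, ERBB2 and EPCAM). Rates say nothing of the level of a marker.

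**Figure D1:**
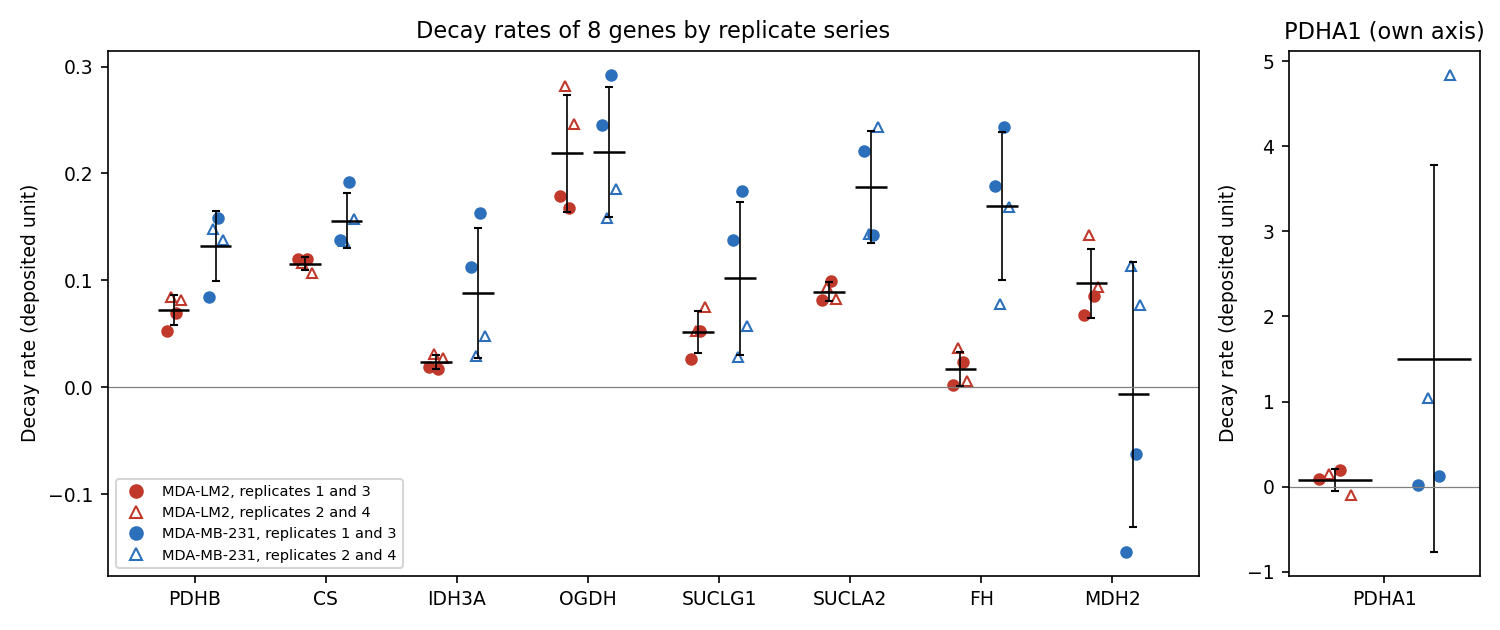
Decay rates (vertical axis, deposited unit) of the 9 genes in each replicate series, with MDA-LM2 in red and MDA-MB-231 in blue. Black bars are means ± SD of 4 series, and PDHA1 has an axis of its own. In PDHB, CS, SUCLA2 and FH the red points all lie below the blue ones.

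Motifs and stretches unique to a transcript were read from the GENCODE release 29 transcripts with the same RefSeq identifiers, which were found for all 12. Motifs were searched on the sense strand and are shown in capitals, in DNA letters, within 30 bases each. AUUUA is the core of AU-rich elements, which many decay factors bind. IDH3A had a low rate in every MDA-LM2 series, and its 3′ UTR of 2944 bases holds the longer AU-rich nonamer UUAUUUAUU at base 207 and an element UGUANAUA, the motif of Pumilio proteins, at base 319. The nonamer contains AUUUA, so each nonamer also counts as an AUUUA.
IDH3A nonamer: agtgcttgttTTATTTATTaagtgtctacc
IDH3A Pumilio element: ttctcttcagcTGTAAATAacaggatacag

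These motifs also occurred widely outside the 9 genes. AUUUA was present in the 3′ UTR of 10 of their 12 transcripts and of 70.2% of 11678 transcripts with a rate, the nonamer in 2 and in 8.18%, and the Pumilio element in 1 and in 27.1%. The shares varied with UTR length. Among 1306 transcripts with a 3′ UTR within 20% of the length of IDH3A's, 97.5% held AUUUA, 14.2% the nonamer and 47.0% the Pumilio element. The transcripts of SUCLG1, with a 3′ UTR of 223 bases, and OGDH NM_001165036, with one of 329, had no AUUUA. The 12 transcripts had a median 5′ UTR of 91.5 bases, against 180 over all transcripts, while the median 3′ UTR (891 against 1007.5 bases) and the median GC content (47.1% against 47.0%) were nearer to those of all transcripts. A match of letters is a description and not a measured binding site.

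At the entry to the cycle, PDHB encodes the beta subunit of the E1 enzyme that decarboxylates pyruvate. Its rates in MDA-LM2 were 0.0532, 0.0845, 0.0700 and 0.0821 in replicates 1 to 4, and in MDA-MB-231 0.0848, 0.148, 0.158 and 0.138. The groups did not overlap, but the lowest MDA-MB-231 series lay just above the highest of MDA-LM2. The means were 0.0725 ± 0.0143 and 0.132 ± 0.0327 (SD, n = 4), and the difference was -0.0598 (95% interval -0.107 to -0.0128), with an adjusted p of 0.110 in limma. The difference was -0.0598 within replicates 1 and 3 and within replicates 2 and 4 alike. Leaving out 1 series gave limma adjusted p-values from 0.0376, without MDA-MB-231 replicate 1, to 0.249. That lowest value was the only call of PDHB among 23 alternatives, and with correlated series the limma adjusted p was 0.349.

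PDHA1, on the X chromosome, encodes the alpha subunit, the one that pyruvate dehydrogenase kinases phosphorylate to switch the complex off. Its rates in MDA-LM2 were 0.0881, 0.142, 0.193 and -0.103. In MDA-MB-231 they were 0.0166, 1.04, 0.122 and 4.84, so that replicates 2 and 4 stood far above replicates 1 and 3 and the groups overlapped. The means were 0.0801 ± 0.129 and 1.51 ± 2.27, and the difference of -1.43 had an interval of -3.91 to 1.06 and a limma adjusted p of 0.401. It was 0.0712 within replicates 1 and 3 and -2.92 within replicates 2 and 4, so its direction rests on the latter series. Without MDA-MB-231 replicate 4 it was -0.313, and with rates limited to between -1 and 1 it was -0.455.

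PDHA1 was the gene of the 9 with any rate beyond 1, and it is the mean of 2 deposited transcripts. In NM_000284, which encodes the standard protein, the MDA-LM2 rates were -0.0183, -0.0881, -0.00668 and -0.367, all below 0, and the MDA-MB-231 rates were 0.0261, 1.85, 0.0340 and 0.153. In NM_001173456 the MDA-LM2 rates were 0.194, 0.373, 0.393 and 0.161, and the MDA-MB-231 rates were 0.00712, 0.233, 0.210 and 9.53. Within MDA-LM2 the second transcript thus had the higher rate in every series, and each transcript had 1 MDA-MB-231 series far from the rest, replicate 2 for the first and replicate 4 for the second. The transcripts share nearly all of their sequence. NM_000284 has 93 of 3310 bases (2.81%) that are not in the other, a coding stretch at bases 616 to 708, and NM_001173456 has 60 of 3277 (1.83%), all in its UTRs. The stretch below is the coding sequence by which the annotated transcripts can be told apart.
PDHA1 NM_000284, bases 616 to 708: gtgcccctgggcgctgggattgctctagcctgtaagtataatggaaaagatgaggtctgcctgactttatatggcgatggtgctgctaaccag

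PDHA1 also has a closely similar intronless copy, PDHA2, which has no rate here, and how shared reads were assigned is not given in the sources used here. With PDHA1 taken as the mean of its 2 transcripts, the difference in rate between the subunits of the E1 enzyme did not pass the test. The mean hides a split in MDA-LM2. There, every PDHB rate (0.0532 to 0.0845) lay above those of NM_000284 (-0.367 to -0.00668). Each was also below those of NM_001173456 (0.161 to 0.393). PDHA1 minus PDHB averaged 0.691 ± 1.66 over the 8 series (PDHA1 higher in 5 of 8, two-sided exact sign-flip p = 0.320, adjusted over 2 pairs 0.320). Without MDA-MB-231 replicate 4 the average was 0.117.

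CS encodes citrate synthase, which joins acetyl-CoA to oxaloacetate. Its rates were close together in MDA-LM2, at 0.120, 0.116, 0.120 and 0.107, and were 0.138, 0.137, 0.192 and 0.157 in MDA-MB-231. Each MDA-LM2 value was below each MDA-MB-231 value. The means were 0.116 ± 0.00622 and 0.156 ± 0.0257 (SD, n = 4), and the difference of -0.0403 (interval -0.0807 to 0.000133) did not pass the test (limma adjusted p = 0.192). It was -0.0448 within replicates 1 and 3 and -0.0358 within replicates 2 and 4.

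IDH3A encodes the catalytic subunit of the NAD-dependent isocitrate dehydrogenase. In MDA-LM2 its rates were 0.0189, 0.0311, 0.0177 and 0.0275, and in MDA-MB-231 0.113, 0.0296, 0.163 and 0.0486. MDA-MB-231 replicates 1 and 3 were well above every MDA-LM2 series, replicate 4 was above them by less, and replicate 2 lay among them. The means were 0.0238 ± 0.00655 and 0.0884 ± 0.0610, and the difference of -0.0646 had an interval of -0.136 to 0.00647 and a limma adjusted p of 0.229. Within replicates 1 and 3 the difference was -0.119, and within replicates 2 and 4 it was -0.00976.

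OGDH encodes the E1 subunit of the 2-oxoglutarate dehydrogenase complex, a relative of pyruvate dehydrogenase. It had the highest mean rate of the 9 in MDA-LM2. The rates were 0.179, 0.282, 0.168 and 0.246 in MDA-LM2 and 0.245, 0.158, 0.292 and 0.185 in MDA-MB-231, and they overlapped throughout. The means were 0.219 ± 0.0546 and 0.220 ± 0.0604, a difference of -0.00147 with an interval of -0.0967 to 0.0937 (limma adjusted p = 0.986). The second number of the titles split the lines in opposite ways: replicates 1 and 3 were below 2 and 4 in MDA-LM2 and above them in MDA-MB-231. The difference was therefore -0.0955 within replicates 1 and 3 and 0.0926 within replicates 2 and 4.

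The OGDH value is the median of 3 transcripts that did not behave alike. The short form NM_001003941 had rates of 0.360, 0.297, 0.273 and 0.246 in MDA-LM2 and of 0.245, 0.158, 0.292 and 0.185 in MDA-MB-231, the latter being the gene's median in all 4 series. NM_001165036 had 0.179, 0.106, 0.168 and 0.295 in MDA-LM2, but 0.0249, 2.30, 0.0174 and 2.64 in MDA-MB-231, where replicates 2 and 4 were far above 1 and 3. NM_002541, the full-length form, had 0.132, 0.282, 0.160 and 0.0623 in MDA-LM2 and 2.57, 0.0450, 0.324 and -0.0616 in MDA-MB-231, where replicate 1 stood alone. No OGDH transcript passed the test between the lines; limma adjusted p-values over all transcripts were 0.287, 0.328 and 0.524 in that order. With the mean over transcripts in place of the median, the gene's difference was -0.516 (limma adjusted p = 0.101).

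The OGDH transcripts can be separated by 448 of 1744 bases in NM_001003941 (25.7%), by 738 of 4181 bases in NM_002541 (17.7%), all in the 3′ UTR, and by only 91 of 3479 bases in NM_001165036 (2.62%). The last stretch codes for protein, as do 78 of the bases particular to the short form, and both are shown because the rates of the transcripts diverge. The 3′ UTR of NM_002541 also holds an AU-rich nonamer at base 981, which 6.45% of 1395 transcripts with a 3′ UTR within 20% of its length do.
OGDH NM_001003941, bases 1300 to 1377: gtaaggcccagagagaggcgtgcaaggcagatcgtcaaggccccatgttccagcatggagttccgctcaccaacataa
OGDH NM_001165036, bases 505 to 595: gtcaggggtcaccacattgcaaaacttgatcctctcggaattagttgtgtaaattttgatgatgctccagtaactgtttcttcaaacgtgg

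**Figure D2:**
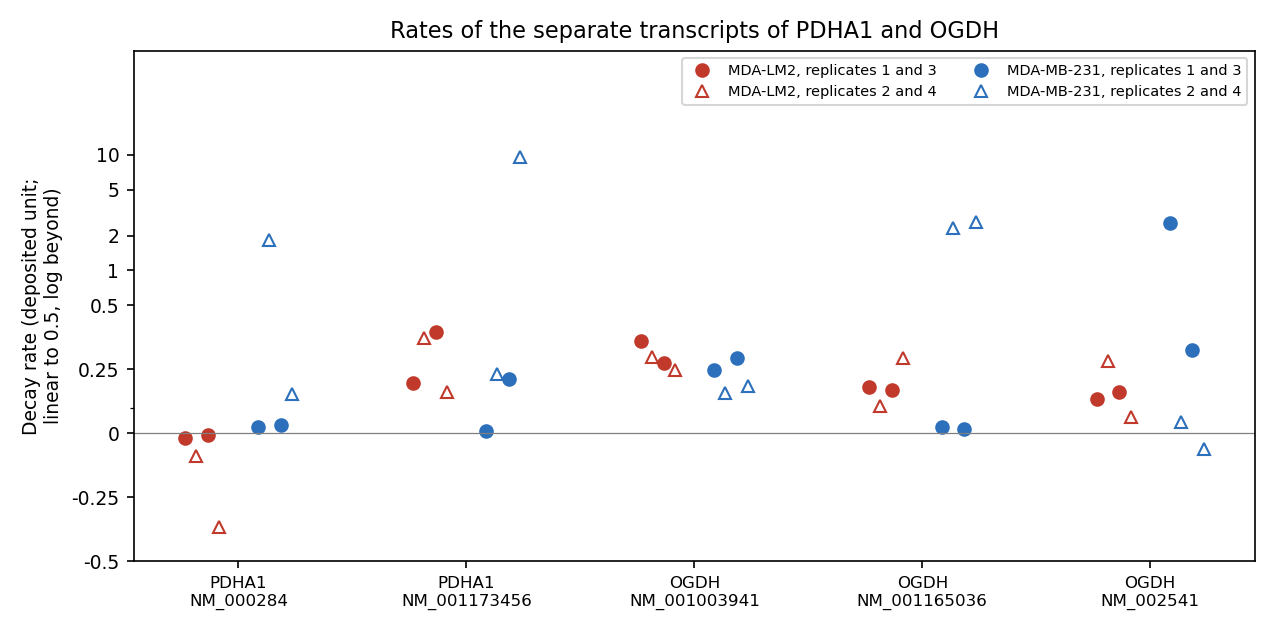
Decay rates of the 2 PDHA1 and 3 OGDH transcripts in each series (vertical axis in the deposited unit, linear to 0.5 and logarithmic beyond), with MDA-LM2 in red and MDA-MB-231 in blue. The points above 1 are all blue, the highest being 9.53 for NM_001173456.

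Succinyl-CoA synthetase pairs the alpha subunit from SUCLG1 with either the ATP-forming beta subunit from SUCLA2 or the GTP-forming one from SUCLG2. SUCLG1 rates were 0.0266, 0.0527, 0.0531 and 0.0754 in MDA-LM2 and 0.138, 0.0284, 0.184 and 0.0577 in MDA-MB-231. As in IDH3A, MDA-MB-231 replicates 1 and 3 were above all MDA-LM2 series, and here replicates 2 and 4 lay among them. The means were 0.0519 ± 0.0200 and 0.102 ± 0.0715, and the difference of -0.0499 (interval -0.135 to 0.0347) had a limma adjusted p of 0.387. It was -0.121 within replicates 1 and 3 and 0.0210 within replicates 2 and 4.

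SUCLA2 rates were 0.0814, 0.0938, 0.0996 and 0.0828 in MDA-LM2 and 0.221, 0.144, 0.143 and 0.244 in MDA-MB-231. The groups were apart, with no MDA-LM2 rate reaching the lowest of MDA-MB-231. The means were 0.0894 ± 0.00880 and 0.188 ± 0.0524 (SD, n = 4), and the difference of -0.0984 (interval -0.163 to -0.0339) had an adjusted p of 0.0746 in limma and of 0.324 with correlated series. The difference was -0.0914 within replicates 1 and 3 and -0.105 within replicates 2 and 4. Leaving out 1 series gave limma adjusted p-values from 0.0469, without MDA-MB-231 replicate 2, to 0.180. That lowest value was the only call of SUCLA2 among 23 alternatives.

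Within a series, SUCLG1 mRNA had a lower rate than SUCLA2 mRNA in 7 of 8, the exception being MDA-MB-231 replicate 3. SUCLG1 minus SUCLA2 averaged -0.0617 ± 0.0687 (SD, n = 8; two-sided exact sign-flip p = 0.0234, adjusted over 2 pairs 0.0469). The smallest p of 8 sign flips is 0.00781, and this test takes as independent series that share a second number; the 4 series of a line alone cannot go below 0.125. The MDA-LM2 series averaged -0.0375 ± 0.0208, and those of MDA-MB-231 averaged -0.0859 ± 0.0949.

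FH, fumarate hydratase, turns fumarate into malate. Its rates in MDA-LM2 were near 0 in every series, at 0.00266, 0.0368, 0.0238 and 0.00628, and in MDA-MB-231 they were 0.188, 0.0780, 0.244 and 0.168. The highest MDA-LM2 rate was below the lowest of MDA-MB-231, which was replicate 2. The means were 0.0174 ± 0.0159 and 0.170 ± 0.0688 (SD, n = 4), and the difference of -0.152 had an interval of -0.233 to -0.0710 and a limma adjusted p of 0.0398. The difference was -0.203 within replicates 1 and 3 and -0.102 within replicates 2 and 4. Apart from the correlated fit, the call was also lost in 7 of the 8 fits that left out a series, where the adjusted p ran from 0.00454, without MDA-MB-231 replicate 2, to 0.116.

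MDH2, the mitochondrial malate dehydrogenase that regenerates oxaloacetate, was the only gene of the 9 with a higher mean rate in MDA-LM2. Its rates were 0.0673, 0.142, 0.0855 and 0.0943 in MDA-LM2 and -0.154, 0.114, -0.0622 and 0.0769 in MDA-MB-231. MDA-MB-231 replicates 1 and 3 were below 0 and below all MDA-LM2 series, while replicates 2 and 4 lay within their range. The means were 0.0974 ± 0.0320 and -0.00631 ± 0.124, and the difference of 0.104 (interval -0.0379 to 0.245) did not pass the test (limma adjusted p = 0.290). It was 0.184 within replicates 1 and 3 and 0.0231 within replicates 2 and 4.

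**Figure D3:**
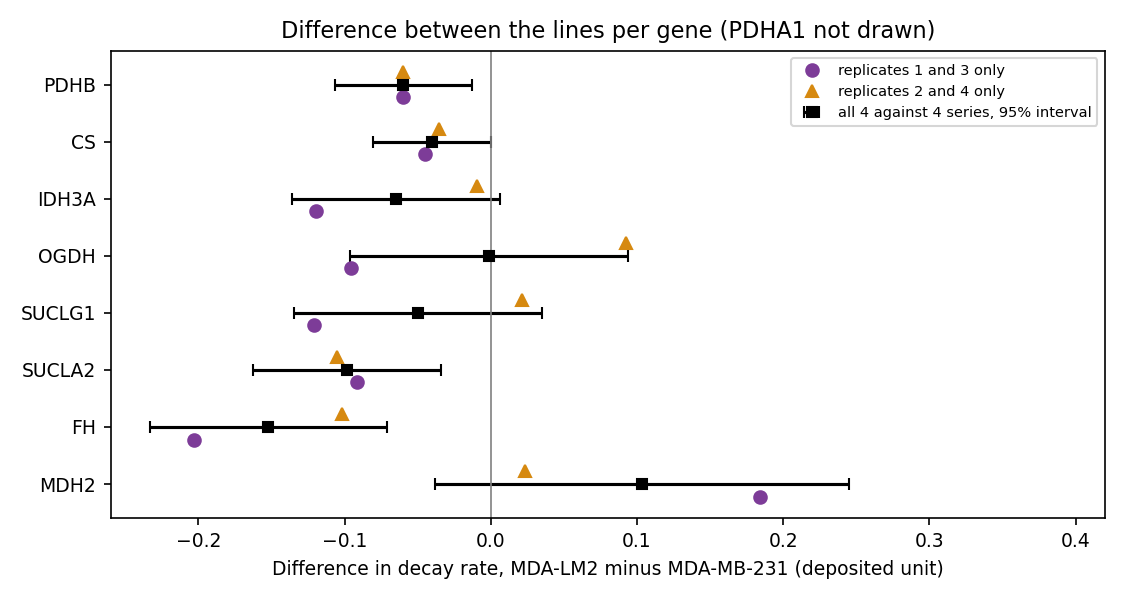
Difference in decay rate between the lines (horizontal axis, MDA-LM2 minus MDA-MB-231, deposited unit) for 8 genes. Squares with bars are the estimates from 4 against 4 series with 95% intervals, circles the differences within replicates 1 and 3, and triangles those within replicates 2 and 4. OGDH and SUCLG1 have a circle below 0 and a triangle above 0, and PDHA1 is not drawn because its difference of -1.43 is off the scale.

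The split by second number ran through several of the genes. In MDA-MB-231, replicates 1 and 3 were both above replicates 2 and 4 for IDH3A, OGDH, SUCLG1 and FH, and both below them for PDHA1 and MDH2, that is for 6 of 9 genes (66.7%) beside 59.0% of all genes. In MDA-LM2 they were both above for CS and both below for PDHB, IDH3A, OGDH and MDH2, 5 of 9 beside 59.1% of all genes. With the second number as a term in limma, FH alone of the 9 was called (limma adjusted p = 0.0410). That term takes the split to be the same in both lines, which it was not for OGDH. What the second number stands for, and why rates followed it, was not tested. PDHB, CS and SUCLA2 gave nearly equal differences within both sets of replicates, and FH was lower in MDA-LM2 in both.

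The authors' deposited table gives a differential score for each transcript, headed as a t-score, in which a positive value marks slower decay in MDA-LM2. The score in the authors' deposited table was positive for 10 of the 12 transcripts and negative for MDH2 (-0.807) and OGDH NM_001003941 (-0.892). FH had the highest, 0.981, followed by PDHB with 0.973, SUCLA2 with 0.969 and CS with 0.952. Read as 1 minus a p-value, which matched an unequal-variance comparison of the deposited rates, the scores of 0 of the 12 passed a Benjamini-Hochberg adjusted threshold of 0.05 (FH adjusted p = 0.157), beside 5.56% of all transcripts in the authors' deposited table.

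Placed among all genes of the same series, most of the 9 mRNAs were on the slow side. In MDA-LM2 FH had a mean percentile of 10.4 ± 1.83 (SD, n = 4), IDH3A of 11.4 ± 0.957 and SUCLG1 of 17.6 ± 5.02, where a low percentile is a low rate. PDHB at 22.8, SUCLA2 at 27.8, MDH2 at 29.9, PDHA1 at 33.0 and CS at 35.8 followed. OGDH at 64.0 was the only one above the middle, and it was so in all 4 series. Neighbours in this order from SUCLG1 to CS had ranges that met or overlapped, and FH overlapped with IDH3A.

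In MDA-MB-231 the order was different. MDH2 was lowest at 14.8 ± 14.6, followed by IDH3A at 23.8 ± 11.8, SUCLG1 at 27.3 ± 14.9, PDHB at 34.5, CS at 41.1, FH at 44.3 ± 14.5, SUCLA2 at 48.3, PDHA1 at 52.1 ± 40.8 and OGDH at 55.8. The spread between series was wide enough for the ranges of every neighbouring pair to overlap. FH thus ranged over percentiles 8.29 to 11.98 in MDA-LM2 and 23.8 to 57.3 in MDA-MB-231.

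**Figure D4:**
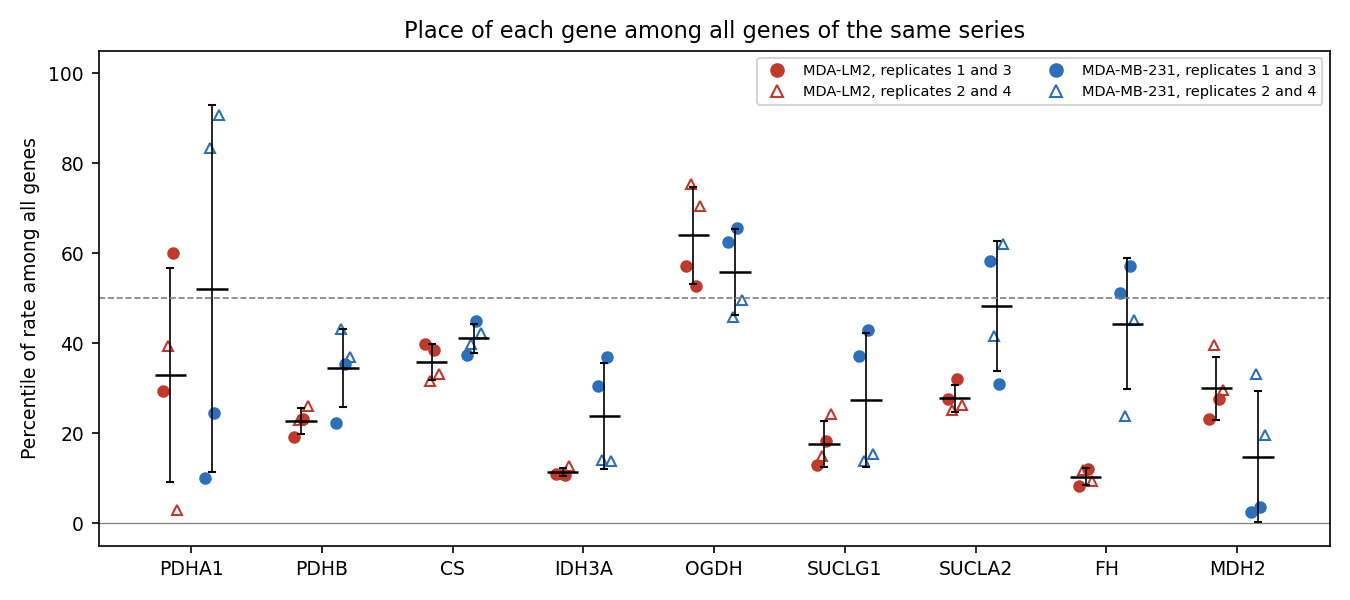
Percentile of each gene's rate among all genes of the same series (vertical axis, 0 is the lowest rate), for MDA-LM2 in red and MDA-MB-231 in blue, with means ± SD of 4 series in black. In MDA-LM2 FH and IDH3A lie between 8.29 and 12.8 and OGDH is above the dashed middle line in every series.

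In MDA-LM2 the 9 genes had a median rate of 0.0822 ± 0.0111, and in MDA-MB-231 one of 0.149 ± 0.0133 (SD, n = 4). The median over all genes was 0.164 ± 0.0107 and 0.189 ± 0.0153. Between 7 and 8 of the 9 genes were below the gene median in each MDA-LM2 series, and between 6 and 8 in each MDA-MB-231 series. The genes whose rates over the 8 series came closest to the median of the 9 were ATL3, TARS1, C6orf62, JMJD8 and HSPA4, with a mean absolute difference of 0.00529 to 0.0101, against a median of 0.0921 over the genes with all rates within 1 of 0.

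The other genes of the pathway were taken from 6 lists of 53 genes, of which 41 had rates in both lines. Of these, 34 had a lower mean in MDA-LM2, 3 passed the test as slower and 0 as faster, beside 67.1% of all genes lower, 6.76% slower and 1.98% faster. The median difference was -0.0813, against -0.0542 over all genes, and for the 28 of the 41 with all 8 rates within 1 of 0 it was -0.0665, against -0.0173 over all such genes. With correlated series 2 of the 3 were still called, beside 3.19% of all genes called slower. On the 7092 genes with all 8 rates within 1 of 0, that fit called only 1 gene slower and 0 faster. A rate beyond 1 in any MDA-MB-231 series occurred in 13 of the 41, and in any MDA-LM2 series in 3.

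Among the remaining subunits of pyruvate dehydrogenase (3 of 4 measured) and of the cycle enzymes (10 of 12), all 13 had a lower mean in MDA-LM2 and 0 passed the test. The shares over all genes were 67.1% lower and 6.76% called slower. In 4 of the 13 an MDA-MB-231 rate lay beyond 1. SDHC had 1 such series, replicate 1 at 9.74, and its difference within replicates 2 and 4 was -0.00567. DLAT, the acetyltransferase core of the complex, had means of 0.0762 ± 0.0140 and 0.145 ± 0.0603 (SD, n = 4; limma adjusted p = 0.209). IDH3B, a partner of IDH3A, had 0.00971 ± 0.0340 and 0.117 ± 0.240, with one MDA-MB-231 series, replicate 2, at 0.466. SUCLG2, the alternative partner of SUCLG1, had 0.0628 ± 0.0538 and 0.0794 ± 0.0845.

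Of the kinases and phosphatases that regulate pyruvate dehydrogenase, 5 of 7 were measured, 3 had a lower mean in MDA-LM2 and 0 were called. These counts stand beside 67.1% of all genes lower and 6.76% called slower. PDK1, a kinase that inactivates the complex, had rates from 0.0856 to 0.113 in MDA-LM2 and from 0.160 to 0.365 in MDA-MB-231, without overlap (difference -0.152, limma adjusted p = 0.0780). Of the factors for succinate dehydrogenase assembly, lipoylation and iron-sulphur clusters 5 of 9 were measured and 4 were lower, again with 0 called, beside the same shares. SDHAF3, an assembly factor of succinate dehydrogenase, had 0.0224 ± 0.0433 and 0.170 ± 0.104 (limma adjusted p = 0.132).

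Calls were found among genes that feed or drain the cycle, where 12 of 15 were measured, 9 were lower in MDA-LM2 and 2 passed as slower, beside 67.1% and 6.76% of all genes. GPT2, the mitochondrial alanine transaminase that makes 2-oxoglutarate from glutamate, had rates of 0.225, 0.262, 0.276 and 0.195 in MDA-LM2 and of 1.96, 1.67, 2.04 and 1.82 in MDA-MB-231. The MDA-MB-231 series were alike, far above those of MDA-LM2 and all beyond 1, which none of the 9 genes but PDHA1 reached. GPT2 is thus left out of fits on genes in range. In an MDA-MB-231 series 16.8% to 18.8% of all genes had a rate beyond 1 either side of 0. Another pathway gene, PDP1, also had closely matching MDA-MB-231 rates, at 9.63 to 9.80. Its MDA-LM2 rates were 0.306, 9.61, 0.314 and 9.60. Closely matching rates far beyond 1 were thus not confined to MDA-MB-231. How such rates arose was not tested. The GPT2 difference of -1.63 had an interval of -1.91 to -1.35. Its adjusted p was 0.000146 in limma, and 0.000636 with correlated series.

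GLUD1, glutamate dehydrogenase, makes 2-oxoglutarate by another route. Its rates were 0.00504, 0.0296, 0.0143 and 0.00844 in MDA-LM2 and 0.0823, 0.174, 0.0850 and 0.124 in MDA-MB-231, without overlap. The difference of -0.102 had a limma adjusted p of 0.0392, which became 0.128 with correlated series. SLC25A12, an aspartate-glutamate carrier of the inner membrane, had 0.181 ± 0.0143 and 0.294 ± 0.111 (adjusted p = 0.238).

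Of 6 cytosolic enzymes that act on metabolites of the cycle, 5 were lower in MDA-LM2 and 1 passed as slower, beside the same 67.1% and 6.76% of all genes. That was IDH1, the cytosolic NADP-dependent isocitrate dehydrogenase, with rates of 0.0130, 0.0988, 0.0424 and 0.0503 in MDA-LM2 and 0.181, 0.288, 0.240 and 0.289 in MDA-MB-231. The groups were apart, the difference was -0.198 (interval -0.272 to -0.124), and the adjusted p was 0.0104 in limma and 0.0405 with correlated series. The mitochondrial IDH2, by comparison, had 0.0720 ± 0.0476 and 0.113 ± 0.129 (adjusted p = 0.674).

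**Figure D5:**
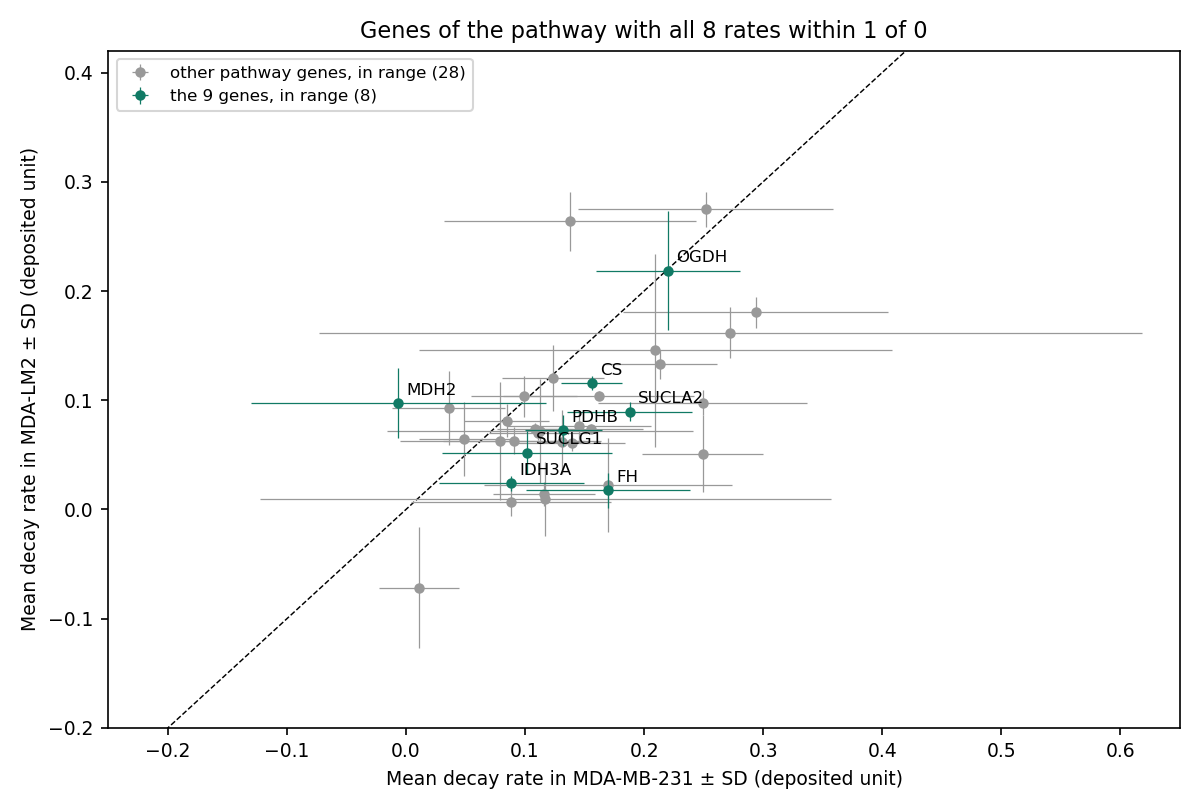
Mean decay rate ± SD in MDA-MB-231 (horizontal axis) and in MDA-LM2 (vertical axis), deposited unit, n = 4 series each, for the 8 genes (green) and 28 other pathway genes (grey) with all 8 rates within 1 of 0. The dashed line marks equal rates, and among the green points MDH2 alone lies above it.

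Neighbouring pathways are given as counts only. Of 71 measured subunits of oxidative phosphorylation, which use the electrons the cycle delivers, 57 had a lower mean in MDA-LM2, 13 were called slower and 0 faster, and 4 were called with correlated series. Of 16 glycolytic genes, which supply the pyruvate, 13 were lower, 2 were called slower and 0 faster, and 1 was called with correlated series. Over all genes 67.1% were lower, 6.76% were called slower and 1.98% faster, and 3.19% were called slower with correlated series. Whether either set differed from the 9 genes was not tested.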

How the data were processed

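The labels list 32 sequencing libraries of labelled RNA from 2 cell lines. The authors deposited decay rates per transcript and series, estimated from the fall in abundance over the chase, per the labels, and a differential score per transcript that, per the file headers, is a t-score. The submitters' processing notes name TopHat and Cufflinks as tools and hg18 as the build, without saying what each was used for. How time points were scaled and zeros handled is not given in the sources used here. The score equalled the sign of the mean difference times 1 minus an unequal-variance p within 0.001 for all 12966 transcripts.

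Of the transcripts in both tables (14545 for MDA-LM2 and 14193 for MDA-MB-231), 12644 were matched to symbols in a RefSeq gene table and 118 in GENCODE, and 204 had none and were left out. A gene's rate was the median over its transcripts (10625 genes, 8933 of them with 1 transcript). As the builds differ, no coordinate is given. limma 3.58.1 in R 4.3.3 compared 4 against 4 series, with a variance trend, no block, two-sided tests and Benjamini-Hochberg adjustment over all genes at 0.05. It was tested on simulated data for genes in range, with independent series and a common spread in both lines. The real series were correlated and differed in spread, so that test does not cover them. Intervals are limma's. Pairs of subunits were compared by exact sign flips in Python 3.11.15 (scipy 1.17.1), and lists were only counted.

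The 9 genes, the gene lists and the tests were chosen with earlier results of these data known. All 9 were named. From each of the 6 pathway lists, the genes named were those called, at most 4 by smallest p, and the gene of largest difference among those with all 8 rates within 1 of 0, and counts alone were given for oxidative phosphorylation and glycolysis. SUCLG2, IDH2, SDHC and PDP1 fell outside that rule and were added after their values were seen. The genes nearest in pattern were the 5 with the smallest mean absolute difference from the median of the 9. Alternatives covered correlation between series, a block by replicate number, centring, the variance trend, robust moderation, the range of rates, the unit (mean over transcripts, or transcripts), an unequal-variance test and leaving out each series; the splits by second number, the second number as a term, and correlated series combined with range, centring or no trend were chosen after seeing the data. Some motif sites are not reported here.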

Additional observations from a re-analysis of the deposited data

Results flagged for a closer look

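Over both lines, 44 groups of 4 series were examined (the 9 genes, the 5 transcripts of PDHA1 and OGDH and the 8 other pathway genes chosen by rule) for a series whose gap to the nearest other exceeded 0.829 of the group's range. Such a series was found in 3 groups, and 1 in 20 would be about 2.2. That figure takes series and groups as independent, which they were not, so it sets no expectation here. All 3 were MDA-MB-231 series of transcripts whose genes have several: PDHA1 NM_000284 in replicate 2 (1.85), PDHA1 NM_001173456 in replicate 4 (9.53) and OGDH NM_002541 in replicate 1 (2.57). The other 3 MDA-MB-231 rates reached at most 0.153, 0.233 and 0.324 in these transcripts. Their cause was not tested.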

How the results depend on the processing

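Among 27 settings beside the fit, 0 of the 9 genes were called faster in each of the 24 that give this count. The number called slower was 0 with a replicate block, correlated series, no variance trend, an unequal-variance test, replicates 2 and 4 only, and correlated series on genes in range, centred or without the trend, and 0 to 2 when 1 series was left out; the cause was not tested. FH was lower in MDA-LM2 in all 23 of its alternatives and was called in 8 (adjusted p 0.00454 to 0.274).

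The median difference over the 9 genes was -0.0346 with each series centred (also with correlated series), -0.0914 in replicates 1 and 3, -0.0358 in replicates 2 and 4, and -0.0744 to -0.0398 when 1 series was left out. OGDH turned to 0.0237 when centred (also with correlated series), to 0.0926 in replicates 2 and 4, and ranged from -0.0226 to 0.0226 with 1 series left out. PDHA1 turned to 0.0712 in replicates 1 and 3 and SUCLG1 to 0.0210 in replicates 2 and 4. In MDA-LM2 alone, PDHA1 minus PDHB was 0.00768 and SUCLG1 minus SUCLA2 -0.0375. Relative to the median of genes in range, the MDA-LM2 median of the 9 was -0.0687 and that of MDA-MB-231 -0.0101, against -0.0820 and -0.0406 relative to all genes.

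Over all genes, the fit called 718 slower and 210 faster. A replicate block gave 246 and 31, correlated series 339 and 34 (1 and 0 on genes in range, 302 and 97 centred, 290 and 27 without the trend), centring 546 and 424, an unequal-variance test 114 faster, replicates 1 and 3 alone 1809 and 441, and 1 series left out 401 to 994 and 83 to 273. Across genes in range, same-numbered series of the lines did not deviate together from their line means (correlations -0.0421, -0.0106, -0.00247 and -0.0362). Whether the series joined by the block share more than a number is not stated. Read depth is unknown, so no limit from it can be given.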
